A study of Mus musculus with 10 samples.

Results

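Transcripts of the collagen, laminin and integrin genes were compared between the somatostatin-secreting delta cells, the glucagon-secreting alpha cells and the insulin-secreting beta cells of mouse pancreatic islets. The genes were taken by a rule on symbols, which was set with earlier results of these data known. It took every collagen chain, laminin chain and gene named Itga or Itgb, with fibronectin (Fn1), the nidogens, perlecan (Hspg2) and agrin (Agrn). That gave 90 of the 19213 genes in the deposited table. RNA came from cells sorted by fluorescence from adult islets and was sequenced in 2 delta libraries (1 male, 1 female), 3 alpha libraries (2 male, 1 female) and 5 beta libraries (2 male, 3 female). All mice were triple transgenic and carried the mIns1-H2b-mCherry reporter, in which the mouse Ins1 promoter marks beta cell nuclei, together with a floxed YFP allele. The delta sort took YFP-positive cells of mice with Sst-Cre, the alpha sort took those of mice with Gcg-Cre, and beta cells were taken from the same islets, so each cell type is defined by the promoter that drives its label. Islets of 10 to 12 animals of 1 sex were pooled and kept overnight in 5.5 mM glucose before dissociation with trypsin. Nothing in the labels says that every library had a pool of its own. The p-values therefore measure how far these libraries spread, and some of that spread may be technical.

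Collagens are triple helices of 3 chains that form fibrils, networks or, in the transmembrane types, cell surface proteins. Laminins are trimers of 1 alpha, 1 beta and 1 gamma chain that build the basement membrane together with the collagen IV network, nidogen, perlecan and agrin. Integrins are pairs of 1 alpha and 1 beta chain in the cell membrane that bind these proteins and link them to the actin cytoskeleton. In the islet the basement membrane is laid down mainly by the endothelial cells of the capillaries, and the endocrine cells meet it with integrins.

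The sorts carried their defining transcripts. Hhex, a transcription factor of delta cells, stood at 193 RPKM (reads per kb of gene, scaled to the size of the library) in both delta libraries, against 2.07 to 5.41 in alpha and 0.344 to 2.67 in beta libraries. The alpha cell factor Irx1 stood at 7.03 and 7.70 RPKM in delta libraries and at 49.5 to 64.6 in alpha libraries, against 0.148 to 0.836 in beta libraries. Mafa, a beta cell factor, did not exceed 2.14 RPKM in delta and alpha libraries and stood at 110 to 239 in beta libraries. Library totals recovered from the values were 16688097 to 26684086 reads. Hormone transcripts took 9.81% and 10.6% of the reads of delta libraries, 27.5% to 30.9% of alpha and 17.6% to 31.8% of beta libraries, and RPKM is a share of the library, so a larger hormone share lowers every other value.

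Of the 90 genes, 46 never reached 0.5 RPKM, and 10 reached 10 RPKM in some library. To be tested, a gene had to reach 1 RPKM in 2 or more libraries, which 30 genes did, and the remaining 60 were not tested. A gene that passed only through the cell type where it is high was bound to differ, so the counts below describe the 30 and do not stand for all 90. Differences are log2 fold changes on the log2(RPKM + 1) scale from limma, with sex in the model. Calls were made where the p-value, adjusted over all 12700 genes tested, was under 0.05. The scale compresses the change of genes near 0. In bulk RNA, fewer cells of a type and less RNA per cell cannot be told apart.

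Of the 30 genes, 13 were called higher and 7 lower in delta over beta libraries, where over all genes tested 37.4% were called higher and 13.3% lower (50.7% in either direction). In alpha over beta libraries, 13 were called higher and 12 lower, where the shares over all genes were 23.7% and 30.3% (54.0% in either direction). In delta over alpha libraries, 13 were called higher and 7 lower, where the shares over all genes were 32.1% and 5.89% (38.0% in either direction). These counts share libraries between comparisons. Each of the 30 genes was called in at least 1 comparison, and 9 were called in all 3. The shares of all genes called in at least 1 or in all 3 comparisons are not given here. The counts of 30 and 9 therefore say nothing about the genes beside all others.

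The median log2 fold change of the 30 genes was 0.34 for delta over beta, 0.03 for alpha over beta and 0.17 for delta over alpha, beside 0.25, -0.02 and 0.26 over all genes tested. The 2 positive medians over all genes in the delta comparisons moved to 0.01 and -0.02 when libraries were scaled by median ratios, a scaling that removes a shift common to most genes. Under that scaling the 30 genes split into 11 higher and 9 lower for delta over beta, and into 6 higher and 8 lower for delta over alpha. Over all 12700 genes, the same scaling gave 3188 higher and 3094 lower calls for delta over beta, and 1857 and 1391 for delta over alpha. Without delta replicate 1, 6 genes were called higher for delta over beta and 5 for delta over alpha, and without delta replicate 2 the count for delta over alpha was 6. With either one left out, 28 genes passed the filter, since Col25a1 and Itgb6 reach 1 RPKM in the 2 delta libraries alone. These fits keep 1 delta library, and shares over all genes are not given for them. Their counts therefore say nothing about the genes beside all others. Fold changes of delta libraries below are therefore given with their value under median-ratio scaling where that changes the call or moves the value by over 1.5 times.

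**Figure D1:**
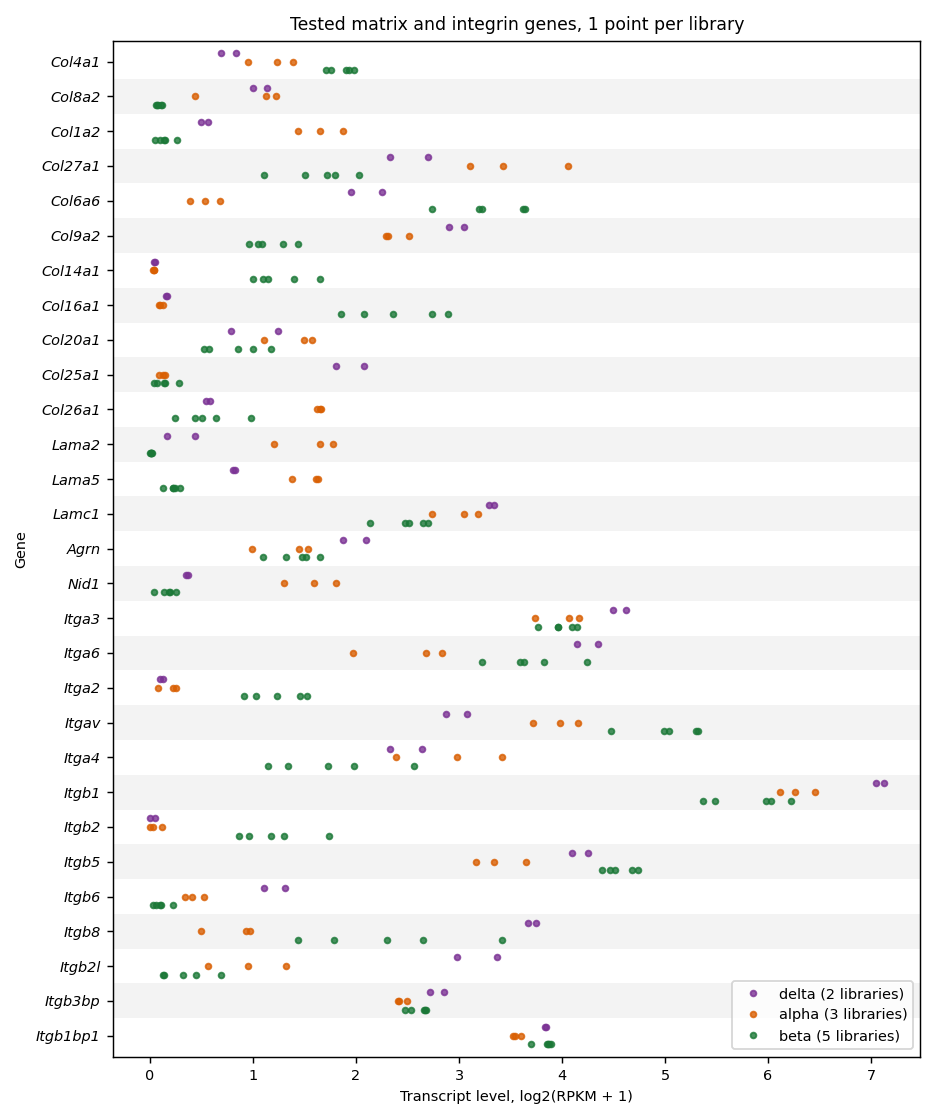
Levels of 29 of the tested genes on the log2(RPKM + 1) axis, 1 point per library, with genes down the page by role and delta, alpha and beta libraries in separate colours. Itgb1 is the highest row, with delta libraries at 131 and 138 RPKM to the right of all others, and Col16a1, Col14a1 and Itgb2 show beta libraries alone away from 0.

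Integrin chains made up most of the summed level. Itgb1 (chr8:128685654-128733200, GRCm38), the beta chain shared by the laminin, collagen and many fibronectin receptors, had the highest level of all 90 genes in each cell type. It stood at 138 and 131 RPKM in delta libraries, at 68.2, 87.0 and 75.9 in alpha libraries, and at 40.2, 43.6, 62.1, 64.2 and 73.5 in beta libraries. The delta libraries lay above all others, while alpha and beta libraries overlapped. Itgb1 made up 45.0% to 45.6% of the summed level of the 90 genes in delta libraries, 35.4% to 40.6% in alpha and 21.2% to 28.0% in beta libraries. It was higher in delta over beta libraries by 1.28 ± 0.22 (SE, log2 fold change, adjusted p = 0.00151). The difference of delta over alpha libraries was 0.79 ± 0.24 (adjusted p = 0.0310), and that call was lost with either delta replicate left out (adjusted p = 0.227 without replicate 1, 0.0898 without replicate 2), without alpha replicate 1 or 3 (0.0823 and 0.117), and under median-ratio scaling, where the fold change was 0.47 (adjusted p = 0.0907). Alpha over beta libraries gave 0.49 ± 0.20, which was not called (adjusted p = 0.0632) but passed without beta replicate 5 (0.0276) and under median-ratio scaling (0.0130). Within the beta libraries the Itgb1 level ran opposite to the share of hormone reads, with 31.8% of reads in the library at 40.2 RPKM and 17.6% in the library at 73.5 RPKM, and the part of that share in the difference was not tested beyond the scalings.

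Itga3 and Itga6, the laminin-binding alpha chains, differed in the cell type that stood apart. Itga3 (chr11:95044474-95076801), the alpha chain of the receptor for laminins with alpha 3 or alpha 5 chains, stood at 21.5 and 23.6 RPKM in delta libraries, at 12.3, 15.8 and 16.9 in alpha libraries, and at 12.6, 16.7, 14.6, 14.6 and 16.1 in beta libraries. Delta libraries lay above all others, and alpha and beta libraries overlapped. The log2 fold change of delta over beta was 0.59 ± 0.12 (adjusted p = 0.00274), or 0.32 with median-ratio scaling (adjusted p = 0.0339). Delta over alpha gave 0.53 ± 0.13 (adjusted p = 0.00923), a call that was lost with median-ratio scaling (0.23, adjusted p = 0.193) and without delta replicate 1 (adjusted p = 0.108).

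Itga6 (chr2:71745616-71858416), which pairs with the beta 1 or beta 4 chain to bind laminin, separated alpha cells from the others. It stood at 19.4 and 16.7 RPKM in delta libraries and at 2.93, 5.38 and 6.13 in alpha libraries, against 8.31, 11.4, 13.2, 11.1 and 17.9 in beta libraries. Alpha libraries did not overlap with the rest, while the delta values overlapped with the highest beta library. Itga6 fell in alpha over beta libraries by 1.14 on the log2 scale (SE 0.24, adjusted p = 0.00334) and was higher in delta over alpha libraries by 1.71 ± 0.29 (adjusted p = 0.00166). For delta over beta the fold change was 0.57 ± 0.27, not called (adjusted p = 0.102), and it passed without beta replicate 5 (adjusted p = 0.0452).

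Itgav (chr2:83724397-83806916) ran the other way. Its product is the alpha chain of the receptors for vitronectin and for the latent form of TGF-beta, and it pairs with the beta 1, 3, 5, 6 and 8 chains. Delta libraries had 7.43 and 6.32 RPKM, alpha libraries 12.1, 16.8 and 14.8, and beta libraries 21.2, 30.7, 31.9, 38.9 and 38.3. No library of 1 type overlapped with another type, in the order delta, alpha, beta from low to high. The fold change was -2.03 ± 0.21 for delta over beta (adjusted p = 5.43e-05), -1.02 ± 0.19 for alpha over beta (adjusted p = 0.00153) and -1.01 ± 0.23 for delta over alpha (adjusted p = 0.00744), the last of which was lost without delta replicate 2 (adjusted p = 0.0864).

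The beta chains that pair with the alpha v chain did not share the full order of Itgav, though Itgb5, like Itgav, was highest in beta libraries. Itgb5 (chr16:33829665-33949338) stood at 16.1 and 18.0 RPKM in delta libraries, at 7.94, 11.5 and 9.10 in alpha libraries, and at 24.5, 21.9, 21.1, 25.6 and 20.0 in beta libraries. Its alpha libraries were the lowest and its beta libraries the highest, without overlap. Itgb5 fell in alpha over beta libraries by 1.18 (SE 0.13, adjusted p = 8.46e-05). Delta over alpha gave 0.79 ± 0.16 (adjusted p = 0.00455), which was lost under median-ratio scaling (0.49, adjusted p = 0.0753) and without delta replicate 2 (adjusted p = 0.0530). Delta over beta gave -0.38 ± 0.15, which was not called (adjusted p = 0.0566), but under median-ratio scaling the fold change was -0.65 (adjusted p = 0.00966), and the call was also made without alpha replicate 1 or 2 or beta replicate 5 (adjusted p = 0.0437, 0.0363 and 0.0434).

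Itgb8 (chr12:119158022-119238802), whose product pairs with the alpha v chain alone and binds latent TGF-beta, was 1 of the 3 genes that led in delta cells, meaning that delta libraries were called higher over each other type by a log2 fold change of at least 1. Over all genes tested, 4.73% led in delta cells. Of the 3, Col25a1 and Itgb2l would not pass the filter without the delta libraries, so the count is no measure of the genes beside all others. Itgb8 stood at 11.8 and 12.4 RPKM in delta libraries, at 0.406, 0.957 and 0.907 in alpha libraries, and at 1.70, 2.45, 5.29, 3.92 and 9.65 in beta libraries. The 3 cell types did not overlap, but the beta libraries spread widely. The fold change was 2.86 ± 0.47 for delta over alpha (adjusted p = 0.00134), 1.43 ± 0.43 for delta over beta (adjusted p = 0.0219) and -1.44 ± 0.39 for alpha over beta (adjusted p = 0.0116). The call against beta was lost without delta replicate 1 or 2 (adjusted p = 0.166 and 0.0884), and the call of alpha over beta was lost without alpha replicate 3 (0.0709). Sst, the somatostatin gene, varied between the beta libraries as well, at 99.6, 200, 353, 535 and 922 RPKM. The beta libraries averaged 38.0% of the delta level of Itgb8 and 0.746% of the delta level of Sst. The other listed delta markers ranged from 0.531% for Ptprz1 to 16.0% for Lepr and 34.9% for Casr. The part of delta cell RNA in the beta values of Itgb8 was not tested.

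Itgb6 (chr2:60598292-60722643), another partner of the alpha v chain, stood at 1.15 and 1.48 RPKM in delta libraries, at 0.270, 0.441 and 0.325 in alpha libraries and at 0.0224 to 0.169 in beta libraries. The cell types did not overlap. Delta over beta gave 1.11 ± 0.10 (adjusted p = 2.48e-05), delta over alpha 0.77 ± 0.11 (adjusted p = 0.000607) and alpha over beta 0.34 ± 0.09 (adjusted p = 0.0112). Itgb3, the remaining classical partner, was under the filter at 0.0638 to 0.430 RPKM over all libraries.

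Itgb2l (chr16:96422288-96443619), a gene similar to the leukocyte beta 2 chain, also led in delta cells. Its level was 9.30 and 6.91 RPKM in delta libraries, 0.481, 0.928 and 1.49 in alpha libraries, and 0.102, 0.0938, 0.366, 0.247 and 0.616 in beta libraries. Delta libraries stood clear of the rest, and alpha and beta libraries overlapped. Its fold change was 2.84 ± 0.22 for delta over beta (adjusted p = 8.94e-06) and 2.21 ± 0.24 for delta over alpha (adjusted p = 0.000116). Alpha over beta gave 0.63 ± 0.20 (adjusted p = 0.0237), a call that was lost without alpha replicate 2 or 3 (adjusted p = 0.0646 and 0.222, with a fold change of 0.38 in the second case) and without beta replicate 1 (0.0612).

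Of the alpha chains, Itga4 and Itga2 remained. Itga4 (chr2:79255426-79333123), part of the receptor for VCAM-1 and fibronectin, stood at 5.24 and 4.03 RPKM in delta libraries, at 4.22, 6.89 and 9.68 in alpha libraries, and at 1.21, 1.52, 2.94, 2.32 and 4.93 in beta libraries. All 3 types overlapped. Alpha over beta was called at 1.26 ± 0.33 (adjusted p = 0.0101), but not without alpha replicate 3 (adjusted p = 0.0943). Delta over beta gave 0.77 ± 0.36 (adjusted p = 0.107) and was called without beta replicate 5 (adjusted p = 0.0329). Itga2 (chr13:114833081-114932100), which with the beta 1 chain binds collagen, led in beta cells, with 0.0704 and 0.0894 RPKM in delta and 0.0568 to 0.190 in alpha libraries, against 0.886 to 1.88 in beta libraries. Its fold change was -1.10 ± 0.16 for delta over beta (adjusted p = 0.000428) and -1.0 ± 0.14 for alpha over beta (adjusted p = 0.000312). The other collagen-binding chains Itga1 and Itga11 stood under 0.1 RPKM in every library, and Itga10 reached 1.62 RPKM in 1 alpha library. Itga8 was not analysed here.

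Summed over the 17 alpha chain genes, the level was 56.1 and 52.7 RPKM in delta libraries, 33.6 to 51.3 in alpha libraries and 46.9 to 82.3 in beta libraries. Over the 8 beta chain genes, the sum was 168 and 164 RPKM in delta libraries, 77.2 to 101 in alpha libraries and 69.7 to 106 in beta libraries. The ratio of the sum of beta chains to that of alpha chains was thus 2.99 and 3.10 in delta libraries, 1.69 to 2.30 in alpha libraries and 1.07 to 1.49 in beta libraries. The ratios did not overlap between cell types, and they do not depend on the scaling of a library. Without Itgb1, the beta chains summed to 29.5 and 32.4 RPKM in delta libraries, 8.94 to 14.1 in alpha libraries and 27.7 to 32.7 in beta libraries. These sums are given as levels of transcripts and were not tested.

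**Figure D2:**
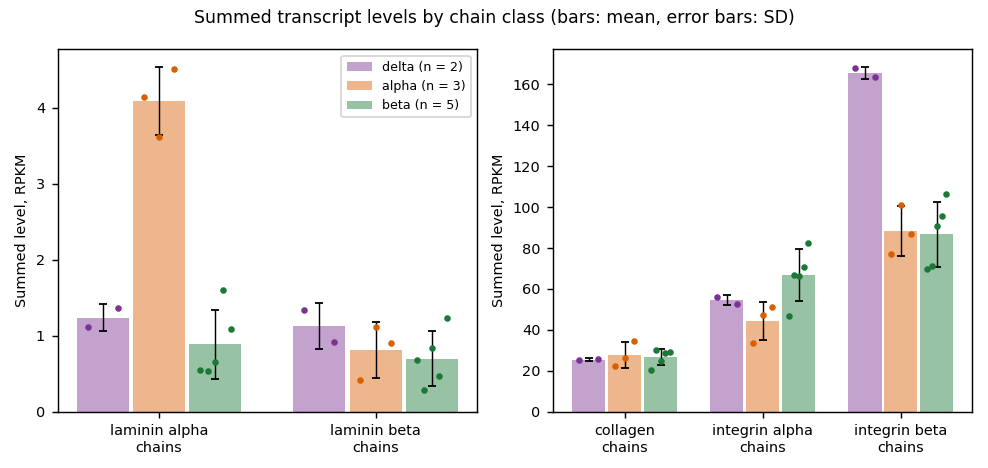
Summed levels in RPKM of the chain classes on linear axes that start at 0, with bars for the mean of delta, alpha and beta libraries, error bars for the SD and points for single libraries. The integrin beta chains stand at 164 and 168 RPKM in delta libraries, above every alpha and beta library, and the laminin alpha chains are highest in alpha libraries, at 3.61 to 4.51 RPKM.

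Apart from Itgae, the leukocyte integrin chains stood higher in every beta library than in any delta or alpha library. Itgb2 (chr10:77530252-77565708), the beta chain of white blood cell integrins, stood at 0.0346 and 0 RPKM in delta libraries (2 reads and 0 reads), at 0, 0.0828 and 0.02 in alpha libraries, and at 1.47, 2.35, 0.945, 1.26 and 0.825 in beta libraries. No delta or alpha library reached the lowest beta library. It led in beta cells, with a fold change of -1.18 ± 0.21 for delta over beta (adjusted p = 0.00158) and -1.15 ± 0.19 for alpha over beta (adjusted p = 0.000771), values that depend on the pseudocount because the delta and alpha levels are close to 0. Its partner chains Itgax, Itgam, Itgad and Itgal, along with Itgb7 and its partner Itgae, were under the filter. Itgax, a chain of dendritic cells and macrophages, stood at 0 and 0.0134 RPKM in delta libraries and 0 to 0.0285 in alpha libraries, against 0.196 to 1.33 in beta libraries. Itgal, the alpha chain of LFA-1, stood at 0.171 and 0.113 RPKM in delta libraries and 0.0340 to 0.0768 in alpha libraries, against 0.292 to 0.603 in beta libraries. Itgae, a chain of T cells that reside in epithelia, was highest in delta libraries, at 0.0649 and 0.106 RPKM (6 and 9 reads), with 0.0131 to 0.0259 in alpha and 0.00895 to 0.0334 in beta libraries. Summed over 7 leukocyte chains, the level was 0.270 and 0.264 RPKM in delta libraries, 0.117 to 0.241 in alpha libraries and 2.24 to 5.71 in beta libraries.

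Markers of immune cells moved with the chains that were higher in beta libraries. Ptprc, which marks all white blood cells, was at 0.00873 and 0 RPKM in delta libraries and at 0 to 0.0101 in alpha libraries, against 0.202 to 0.484 in beta libraries. Lyz2, a macrophage lysozyme, was at 0 in both delta libraries and in alpha replicates 1 and 2, and at 2.88 to 8.52 RPKM in beta libraries. Of the 14 tested markers in a list of 16, 13 were called lower and 1 (C1qa) higher for delta over beta, and 14 were called lower for alpha over beta. The summed list stood at 92.4 and 78.3 RPKM in delta libraries, 25.6 to 45.3 in alpha libraries and 133 to 254 in beta libraries, and C1qa alone made up 73.5 and 57.7 RPKM of the delta sums. Beta replicate 2 had the highest level of Itgb2, Itgax, Ptprc and Lyz2, while Itgb7, Cd52 and Cd74 were highest in beta replicate 1. The part of immune cell RNA in the beta values of the leukocyte integrins was not tested.

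**Figure D3:**
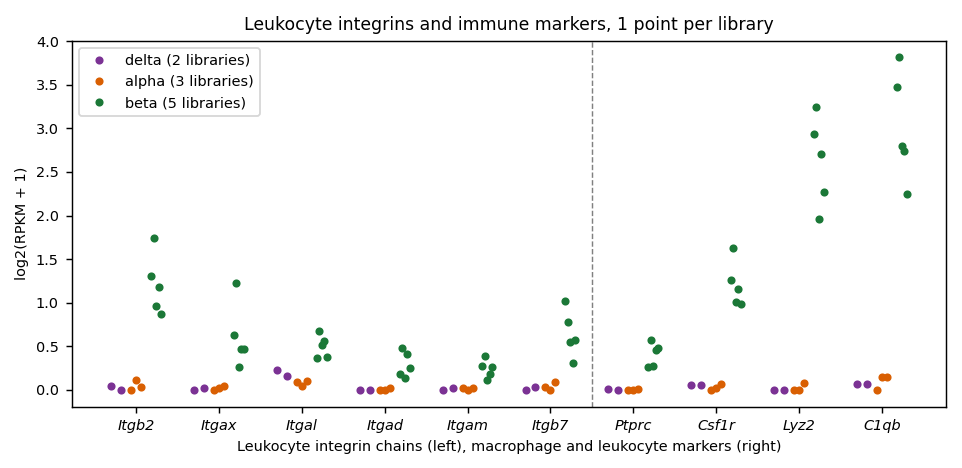
Levels on the log2(RPKM + 1) axis of leukocyte integrin chains (left of the dashed line) and of immune cell markers (right of it), 1 point per library, in delta, alpha and beta libraries. Beta libraries stand at 0.825 to 2.35 RPKM for Itgb2 and at 2.88 to 8.52 for Lyz2, and delta and alpha libraries lie near 0 for both.

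Lamc1 (chr1:153218922-153332786), the gamma chain of most laminins, stood at 9.15 and 8.78 RPKM in delta libraries, at 5.65, 8.07 and 7.29 in alpha libraries and at 3.38, 4.73, 4.54, 5.30 and 5.51 in beta libraries. The beta libraries were lowest and the delta libraries highest, without overlap. Delta over beta was called at 0.84 ± 0.16 (adjusted p = 0.00245) and alpha over beta at 0.54 ± 0.14 (adjusted p = 0.0110). The call of delta over beta was lost without delta replicate 1 (adjusted p = 0.0524).

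Laminin alpha chains set the alpha cells apart. Lama2 (chr10:26980036-27619758), the alpha chain of merosin in muscle and nerve, stood at 0.122 and 0.355 RPKM in delta libraries and at 2.42, 1.30 and 2.14 in alpha libraries, against 0.00393, 0.0169, 0, 0.00886 and 0.00772 in beta libraries. The 3 cell types did not overlap. Alpha over beta was called at 1.56 ± 0.13 (adjusted p = 1.19e-05) and delta over alpha at -1.26 ± 0.16 (adjusted p = 0.000282). Delta over beta gave 0.30 ± 0.14 (adjusted p = 0.109), a comparison that was called with a pseudocount of 0.1 (1.60, adjusted p = 0.00463) and without alpha replicate 1 or 2 (adjusted p = 0.0474 and 0.0423).

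Lama5 (chr2:180176373-180225859), the alpha chain of the laminin of mature vascular and epithelial basement membranes, showed the same order, with 0.747 and 0.771 RPKM in delta libraries, 1.60, 2.05 and 2.09 in alpha libraries and 0.0935 to 0.224 in beta libraries. Again the types did not overlap. The fold change was 1.32 ± 0.09 for alpha over beta (adjusted p = 3.92e-06), 0.60 ± 0.10 for delta over beta (adjusted p = 0.00143) and -0.73 ± 0.11 for delta over alpha (adjusted p = 0.000935). Lama3, an epithelial laminin alpha chain that was under the filter, stood at 0.225 and 0.177 RPKM in delta libraries, 0.0174 to 0.0401 in alpha and 0.243 to 1.29 in beta libraries, and Lamb3 reached 0.864 RPKM at most. Summed over 5 genes, laminin alpha chains stood at 1.11 and 1.36 RPKM in delta libraries, 3.61 to 4.51 in alpha libraries and 0.540 to 1.60 in beta libraries.

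The laminin beta chains, without which no trimer forms, were under the filter. Lamb1 had 1.0 and 0.587 RPKM in delta libraries, 0.322, 0.687 and 0.705 in alpha libraries and 0.163 to 0.322 in beta libraries. Lamb2 stayed at or under 0.211 RPKM in every library. The level of Lamb3 and that of Itgb4, whose product pairs with the alpha 6 chain in hemidesmosomes, spread widely among the libraries of 1 type. Itgb4 stood at 0.225 and 0.131 RPKM in delta libraries, at 0.0194, 0.672 and 0.195 in alpha libraries, and at 0.674, 0.106, 0.639, 0.0907 and 1.48 in beta libraries.

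Transcripts of exocrine cells varied over the same libraries. The summed level of 15 acinar markers was 999 and 744 RPKM in delta libraries, 109, 3895 and 938 in alpha libraries and 12230, 550, 2456, 244 and 5098 in beta libraries, and none of the 15 was called in any comparison. Krt19, a keratin of duct cells, was at 1.91 and 1.22 RPKM in delta libraries, at 0.262, 5.52 and 3.05 in alpha libraries, and at 10.8, 2.03, 8.28, 3.16 and 14.4 in beta libraries. Ambp, another listed duct marker, was highest in delta libraries, at 127 and 164 RPKM, with 13.1 to 19.7 in alpha and 9.76 to 13.3 in beta libraries. Of 10 tested duct markers in a list of 11, 3 were called higher and 1 lower for delta over beta, and 4 and 3 for alpha over beta. Over all genes, 37.4% were called higher and 13.3% lower for delta over beta, and 23.7% and 30.3% for alpha over beta. Alpha replicate 1 was lowest in its group for Itgb4, Lamb3, Krt19 and the acinar sum, and alpha replicate 2 was highest for all of these. The beta libraries did not share 1 order. Their acinar sum was highest in replicate 1, while Itgb4, Lamb3 and Krt19 were highest in replicate 5. Lamb3 stood at 0.376, 0.0393, 0.460, 0.217 and 0.864 RPKM in beta libraries. The part of exocrine RNA in the Itgb4 and Lamb3 values was not tested.

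**Figure D4:**
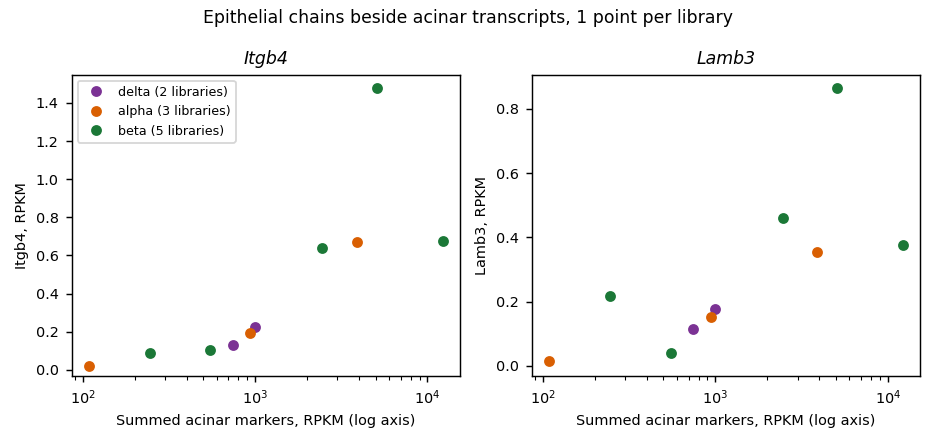
Itgb4 (left) and Lamb3 (right) in RPKM on the vertical axis against the summed level of 15 acinar markers in RPKM on a log axis, 1 point per library in delta, alpha and beta cells. The alpha library at 109 RPKM of acinar markers has 0.0194 RPKM of Itgb4 and the alpha library at 3895 RPKM has 0.672. Beta libraries range from 0.0907 to 1.48, with 0.674 at the highest acinar sum of 12230 RPKM and 1.48 at 5098 RPKM.

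Among the other basement membrane genes, Nid1 and Agrn passed the filter. Nid1 (chr13:13437551-13512269), the nidogen that ties laminin to collagen IV, led in alpha cells, with 0.278 and 0.294 RPKM in delta libraries and 1.47, 2.50 and 2.01 in alpha libraries, against 0.0271 to 0.192 in beta libraries. Its fold change for alpha over beta was 1.40 ± 0.12 (adjusted p = 1.54e-05) and delta over alpha at -1.20 ± 0.15 (adjusted p = 0.000246). Agrn (chr4:156165290-156197488), the proteoglycan that clusters receptors at the nerve-muscle synapse, stood at 3.28 and 2.66 RPKM in delta libraries, 0.991, 1.90 and 1.72 in alpha libraries and 1.14 to 2.14 in beta libraries. Delta libraries were highest, and alpha and beta libraries overlapped. Its fold changes of 0.58 ± 0.18 for delta over beta (adjusted p = 0.0264) and 0.64 ± 0.20 for delta over alpha (adjusted p = 0.0327) were 0.38 and 0.42 without delta replicate 1 (adjusted p = 0.297 and 0.346), and 0.38 and 0.42 with median-ratio scaling (adjusted p = 0.0626 and 0.10). The first call was also lost without beta replicate 1 (0.0512), and the second without delta replicate 2, alpha replicate 1 or alpha replicate 3 (0.0526, 0.0853 and 0.0812). Perlecan (Hspg2) stood at 0.0719 to 0.174 RPKM and fibronectin (Fn1) at 0.0213 to 0.0972 over all libraries.

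Collagen IV, the network of the basement membrane, was represented by Col4a1 (chr8:11198423-11312826), which was highest in beta cells. It stood at 0.613 and 0.790 RPKM in delta libraries, at 0.933, 1.34 and 1.61 in alpha libraries and at 2.94, 2.80, 2.73, 2.26 and 2.37 in beta libraries, with no overlap between types. The fold change was -1.08 ± 0.14 for delta over beta (adjusted p = 0.000258) and -0.65 ± 0.13 for alpha over beta (adjusted p = 0.00215). Delta over alpha gave -0.43 ± 0.15, not called (adjusted p = 0.0544), which passed under median-ratio scaling (-0.56, adjusted p = 0.0401) and without alpha replicate 1 or beta replicate 1 (0.0246 and 0.0446). Its partner Col4a2, which lies head to head with it and gives the second chain of the common collagen IV trimer, was under the filter at 0.323 and 0.612 RPKM in delta, 0.289 to 0.794 in alpha and 0.299 to 0.765 in beta libraries. The ratio of Col4a1 to Col4a2 was 1.90 and 1.29 in delta libraries, 2.03 to 3.23 in alpha libraries and 3.84 to 9.36 in beta libraries.

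The windows around the starts of both genes are shown because they overlap. They come from RefSeq on GRCm38.p6 and run from 250 bases before to 50 bases after the first base of the transcript, 5′ to 3′ on the strand of the gene. The Col4a1 window is chr8:11312777-11313076 on the minus strand and the Col4a2 window chr8:11312555-11312854 on the plus strand. The first bases lie 21 bases apart, and the capitals mark the 78 bases the windows share, which read as reverse complements of each other.
Col4a1: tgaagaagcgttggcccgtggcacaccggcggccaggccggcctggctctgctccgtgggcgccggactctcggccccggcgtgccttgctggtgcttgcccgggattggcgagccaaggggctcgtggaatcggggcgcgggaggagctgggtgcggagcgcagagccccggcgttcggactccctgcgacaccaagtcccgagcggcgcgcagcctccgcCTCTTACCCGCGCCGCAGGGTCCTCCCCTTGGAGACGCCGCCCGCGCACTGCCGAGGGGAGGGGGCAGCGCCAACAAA
Col4a2: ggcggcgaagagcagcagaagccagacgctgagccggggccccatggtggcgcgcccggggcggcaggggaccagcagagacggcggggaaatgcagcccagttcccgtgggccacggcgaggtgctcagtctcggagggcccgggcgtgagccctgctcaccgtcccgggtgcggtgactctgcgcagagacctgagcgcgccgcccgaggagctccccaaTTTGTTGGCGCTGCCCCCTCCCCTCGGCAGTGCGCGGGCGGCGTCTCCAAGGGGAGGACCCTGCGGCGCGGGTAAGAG
RNA of this pair can thus start on both strands of 1 short stretch. The kit does not mark the strand, so reads that cross the overlap of such a pair cannot be assigned by strand.

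Markers of other cells that make collagen and basement membrane were measured in the same libraries. Pdgfra, which marks mesenchymal cells, did not exceed 0.0178 RPKM in any library, and Col1a1, Col3a1, Col6a1 and Col6a2 did not exceed 0.312 RPKM. Of 14 stellate and mesenchymal markers, 2 were tested. The intermediate filament gene Vim was called higher in delta over beta, a call that was lost under median-ratio scaling. Its level was 8.36 and 6.40 RPKM in delta libraries, 0.621 to 1.23 in alpha and at most 5.60 in beta libraries. For alpha over beta, 1 of the 2 markers was called lower. The summed list stood at 10.5 and 8.10 RPKM in delta libraries, 3.18 to 5.50 in alpha libraries and 4.73 to 7.47 in beta libraries. Of 14 endothelial markers, 3 were tested, and Esam and Egfl7 were called higher in delta over beta. Esam, a junction protein, stood at 7.10 and 8.02 RPKM in delta libraries, 5.91 to 6.45 in alpha and 2.93 to 4.57 in beta libraries, and Egfl7, a secreted vascular protein, at 3.68 and 4.97 RPKM in delta, 0.874 to 1.33 in alpha and 1.22 to 2.04 in beta libraries. Cdh5, the cadherin of endothelial junctions, was under the filter at 0.112 and 0.351 RPKM in delta, 0.0902 to 0.662 in alpha and 0.298 to 0.918 in beta libraries. The endothelial list summed to 12.1 and 16.2 RPKM in delta libraries, 8.29 to 12.2 in alpha and at most 14.2 in beta libraries. The part of RNA from these cells in the collagen and laminin values was not tested.

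Of 11 fibrillar collagen genes, Col27a1 and Col1a2 were tested, and both were highest in alpha cells. The other 9 were under the filter, and among them Col1a1 overlapped between the cell types. Col3a1 stood at 0.0356 and 0.0290 RPKM in delta libraries, below the 0.0431 to 0.117 of alpha libraries, and both types overlapped with beta libraries. Col5a3 averaged 0.0387 RPKM in delta, 0.0481 in alpha and 0.235 in beta libraries. Col27a1 (chr4:63214004-63334991), a fibrillar chain known from cartilage, was the highest collagen in alpha libraries. It stood at 5.50 and 4.02 RPKM in delta libraries, at 7.59, 9.77 and 15.6 in alpha libraries and at 1.15, 1.84, 2.28, 2.47 and 3.07 in beta libraries. The 3 types did not overlap. The fold change was 1.99 ± 0.23 for alpha over beta (adjusted p = 0.000101), with delta over beta at 0.92 ± 0.26 (adjusted p = 0.0163) and delta over alpha at -1.07 ± 0.28 (adjusted p = 0.0157). With delta replicate 1 left out, delta over beta was 0.49 (adjusted p = 0.264), and without delta replicate 2 it was 1.38 (adjusted p = 0.0135). Delta over alpha was not called without delta replicate 2 (-0.66, adjusted p = 0.167) or without alpha replicate 3 (adjusted p = 0.0870).

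Col1a2 (chr6:4504814-4541544), the second chain of type I collagen, led in alpha cells too. It had 0.481 and 0.408 RPKM in delta libraries and 2.66, 2.14 and 1.71 in alpha libraries, against 0.0371, 0.103, 0.197, 0.0669 and 0.102 in beta libraries. Its partner Col1a1, which makes up the larger part of the type I trimer, stood at 0.0510, 0.151 and 0.0732 RPKM in the same alpha libraries, far below Col1a2. The alpha over beta call was 1.48 ± 0.10 (adjusted p = 3.91e-06) and delta over alpha at -1.10 ± 0.13 (adjusted p = 0.000153). Delta over beta at 0.38 ± 0.12 (adjusted p = 0.0221) was lost with either delta replicate left out (adjusted p = 0.134 and 0.174) and with median-ratio scaling (adjusted p = 0.0671).

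Col26a1 (chr5:136741759-136883209), a short collagen first described in testis and ovary, completed the alpha group, at 0.457 and 0.498 RPKM in delta libraries, 2.15, 2.17 and 2.08 in alpha libraries and 0.182 to 0.971 in beta libraries. Delta and beta libraries overlapped. Its calls were 1.09 ± 0.16 for alpha over beta (adjusted p = 0.000368) and -1.09 ± 0.19 for delta over alpha (adjusted p = 0.00194). Genes that led in alpha cells were Col27a1, Col1a2, Lama2, Nid1 and Col26a1, 5 of 30 where 1.8% of all genes tested did so. Of these, Col1a2, Lama2, Nid1 and Col26a1 reached 1 RPKM in alpha libraries alone. They passed the filter only where they are high and were bound to differ, so the count is no measure of the genes beside all others.

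The delta libraries also carried transcripts of alpha cell markers, and these values stand beside those of the 5 genes. The delta libraries held 8.72% of the alpha level of Gcg, the glucagon gene, 9.75% to 15.4% of that of Ttr, Irx1 and Irx2, 30.0% of that of Slc38a5 and 73.2% of that of Gc. Of the matrix genes, Lama2 stood at 12.2% and Nid1 at 14.4% of the alpha level in delta libraries, Col1a2 at 20.5%, Col26a1 at 22.4%, Lama5 at 39.7% and Col27a1 at 43.3%. In beta libraries the same alpha genes stood at 0.383% for Lama2 and at 4.67% to 23.3% for the others. The part of alpha cell RNA in the delta values was not tested.

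Col9a2 (chr4:121039385-121055322), a chain of the fibril-associated collagen IX of cartilage, was the highest collagen in delta libraries, at 6.49 and 7.26 RPKM, against 3.95, 3.90 and 4.72 in alpha libraries and 1.07, 1.45, 0.943, 1.71 and 1.12 in beta libraries. The 3 types did not overlap. Delta over beta was called at 1.83 ± 0.12 (adjusted p = 2.42e-06) and alpha over beta at 1.27 ± 0.10 (adjusted p = 1.14e-05). Delta over alpha at 0.56 ± 0.13 (adjusted p = 0.00765) was lost with median-ratio scaling (0.29, adjusted p = 0.160) and without delta replicate 1 (adjusted p = 0.103). Col8a2 (chr4:126286793-126314330), a short network collagen of the cornea, was shared by delta and alpha cells, with 1.0 and 1.19 RPKM in delta, 1.19, 0.356 and 1.34 in alpha and 0.0440 to 0.0865 in beta libraries. Both types were called over beta, delta at 1.0 ± 0.17 (adjusted p = 0.00153) and alpha at 0.89 ± 0.16 (adjusted p = 0.00125). Col20a1 was called in 1 comparison, alpha over beta, at 0.58 ± 0.20 (adjusted p = 0.0332), with 1.16, 1.82 and 1.97 RPKM in alpha libraries against 0.437 to 1.26 in beta libraries, and the call was lost without alpha replicate 2 or 3 (adjusted p = 0.0969 and 0.206) and without beta replicate 1, 2 or 4 (0.0923, 0.0555 and 0.0529).

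Col25a1 (chr3:130131501-130599877), a transmembrane collagen of neurons that motor axons need to reach muscle, was the third gene that led in delta cells. Its level was 2.50 and 3.22 RPKM in delta libraries, 0.0641, 0.103 and 0.0920 in alpha libraries and 0.0255, 0.0492, 0.0979, 0.103 and 0.215 in beta libraries. Alpha and beta libraries overlapped, and both lay far below the delta libraries. Delta over beta was called at 1.82 ± 0.10 (adjusted p = 9.97e-07) and delta over alpha at 1.81 ± 0.11 (adjusted p = 3.05e-06). The mean delta level was 29.1 times the beta mean and 33.1 times the alpha mean. Beside this, the alpha libraries held 3.02% of the delta level of Col25a1, 11.9% of that of Itgb2l and 6.26% of that of Itgb8, with 3.23% for Sst and 1.82% for Hhex. The beta libraries held 3.44% of the delta level of Col25a1 and 3.51% of that of Itgb2l, with 0.618% for Hhex. Of the other listed delta markers, Ptprz1 and Ghsr stood at 1.67% and 1.74% in alpha libraries, Rbp4 at 18.3%, Casr at 38.9% and Lepr at 45.8%. In beta libraries Ptprz1, Ghsr and Rbp4 stood at 0.531% to 1.16%, Lepr at 16.0% and Casr at 34.9%. Of the 7 listed markers, 1 did not reach 0.5 RPKM in any library. With either delta replicate left out, Col25a1 was under the filter and was not tested, Itgb8 lost its call against beta, and Itgb2l was the 1 gene that still led in delta cells.

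Promoter windows of the 3 genes that led in delta cells are shown with motifs searched on both strands. The windows have the same bounds and source as those above, at chr12:119238227-119238526 on the minus strand for Itgb8, chr16:96443565-96443864 on the minus strand for Itgb2l and chr3:130180595-130180894 on the plus strand for Col25a1. RefSeq starts of Itgb8 and Col25a1 lie inside the longer gene models whose coordinates are given above. Capitals mark the CCAAT box (CCAAT) and the GC box (GGGCGG), or their reverse complements.
Itgb8: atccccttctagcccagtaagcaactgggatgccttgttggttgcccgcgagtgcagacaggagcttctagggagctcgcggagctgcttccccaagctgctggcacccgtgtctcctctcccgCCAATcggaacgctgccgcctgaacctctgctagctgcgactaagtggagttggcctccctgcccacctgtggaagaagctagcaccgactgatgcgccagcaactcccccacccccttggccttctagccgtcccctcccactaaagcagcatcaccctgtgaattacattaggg
Itgb2l: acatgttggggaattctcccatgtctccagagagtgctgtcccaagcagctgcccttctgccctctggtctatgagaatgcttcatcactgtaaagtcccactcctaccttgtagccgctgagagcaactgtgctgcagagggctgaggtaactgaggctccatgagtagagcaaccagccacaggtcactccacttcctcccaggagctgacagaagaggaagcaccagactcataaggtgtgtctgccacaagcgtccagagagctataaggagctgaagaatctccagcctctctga
Col25a1: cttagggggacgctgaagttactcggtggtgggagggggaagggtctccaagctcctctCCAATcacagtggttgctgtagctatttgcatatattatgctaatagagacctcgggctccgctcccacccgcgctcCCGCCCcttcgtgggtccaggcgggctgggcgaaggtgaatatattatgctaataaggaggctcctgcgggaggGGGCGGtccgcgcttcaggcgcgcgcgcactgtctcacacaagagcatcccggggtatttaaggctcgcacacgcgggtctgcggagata
Itgb8 has a CCAAT box, Col25a1 has a CCAAT box and 2 GC boxes, and Itgb2l has neither motif in its window. Over 32817 RefSeq promoter windows of this length, 37.4% hold a CCAAT box and 35.6% a GC box. Of the 71 windows found for 64 of the 90 genes, 26.8% hold a CCAAT box and 56.3% a GC box. None of the 3 windows holds TATAAA, which 13.6% of all windows hold.

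Beta cells had their own collagens. Col16a1 (chr4:130047840-130099283), a fibril-associated collagen of skin and cartilage, stood at 0.114 and 0.124 RPKM in delta libraries and 0.0661 to 0.0921 in alpha libraries, against 4.15, 6.43, 3.21, 5.69 and 2.61 in beta libraries. Every beta library lay above every other library. Delta over beta was -2.21 ± 0.25 (adjusted p = 0.000106) and alpha over beta -2.24 ± 0.22 (adjusted p = 3.89e-05). Delta libraries held 2.70% of the beta level of Col16a1 and 1.03% of that of Ins2. Of the other listed beta markers, Ins1, Mafa, Ucn3, G6pc2 and Slc2a2 stood at 1.02% to 2.49% in delta libraries. Nkx6-1 stood at 6.99%, Iapp at 52.2% and Pdx1 at 76.5%.

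Col6a6 (chr9:105687809-105828160), a late-described alpha chain of collagen VI, was the highest collagen in beta libraries. It stood at 2.87 and 3.76 RPKM in delta libraries and 0.313, 0.452 and 0.606 in alpha libraries, against 5.69, 11.5, 8.13, 8.33 and 11.3 in beta libraries. The 3 types did not overlap. The fold change was -2.64 ± 0.15 for alpha over beta (adjusted p = 1.18e-06), -1.14 ± 0.17 for delta over beta (adjusted p = 0.000593) and 1.5 ± 0.19 for delta over alpha (adjusted p = 0.000251). Collagen VI filaments are built on the alpha 1 and alpha 2 chains, and Col6a1 and Col6a2 stood at or under 0.0906 RPKM in every library. Col6a3, under the filter, stood at 0.114 and 0.0348 RPKM in delta libraries and 0.00553 to 0.0984 in alpha libraries, against 0.722 to 2.08 in beta libraries.

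Col14a1 (chr15:55307750-55520803), a fibril-associated collagen that interacts with type I fibrils, stood at 0.0307 and 0.0334 RPKM in delta and 0.0178 to 0.0279 in alpha libraries, from at most 4 reads per library, against 1.0 to 2.14 in beta libraries. Its fold change was -1.20 ± 0.15 for delta over beta (adjusted p = 0.000202) and -1.18 ± 0.13 for alpha over beta (adjusted p = 8.84e-05). Genes that led in beta cells were Col16a1, Col6a6, Col14a1, Itga2, Itgav and Itgb2, 6 of 30 where 3.01% of all genes tested did so. Of these, Col16a1, Col14a1, Itga2 and Itgb2 reached 1 RPKM in beta libraries alone. They too passed the filter only where they are high, so the count is no measure of the genes beside all others. Summed over 44 collagen genes, the level was 25.2 and 25.9 RPKM in delta libraries, 22.4 to 34.7 in alpha libraries and 20.5 to 30.4 in beta libraries. The ranges of the sums overlapped, while the highest collagen gene differed between the cell types, Col9a2 in delta, Col27a1 in alpha and Col6a6 in beta libraries.

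**Figure D5:**
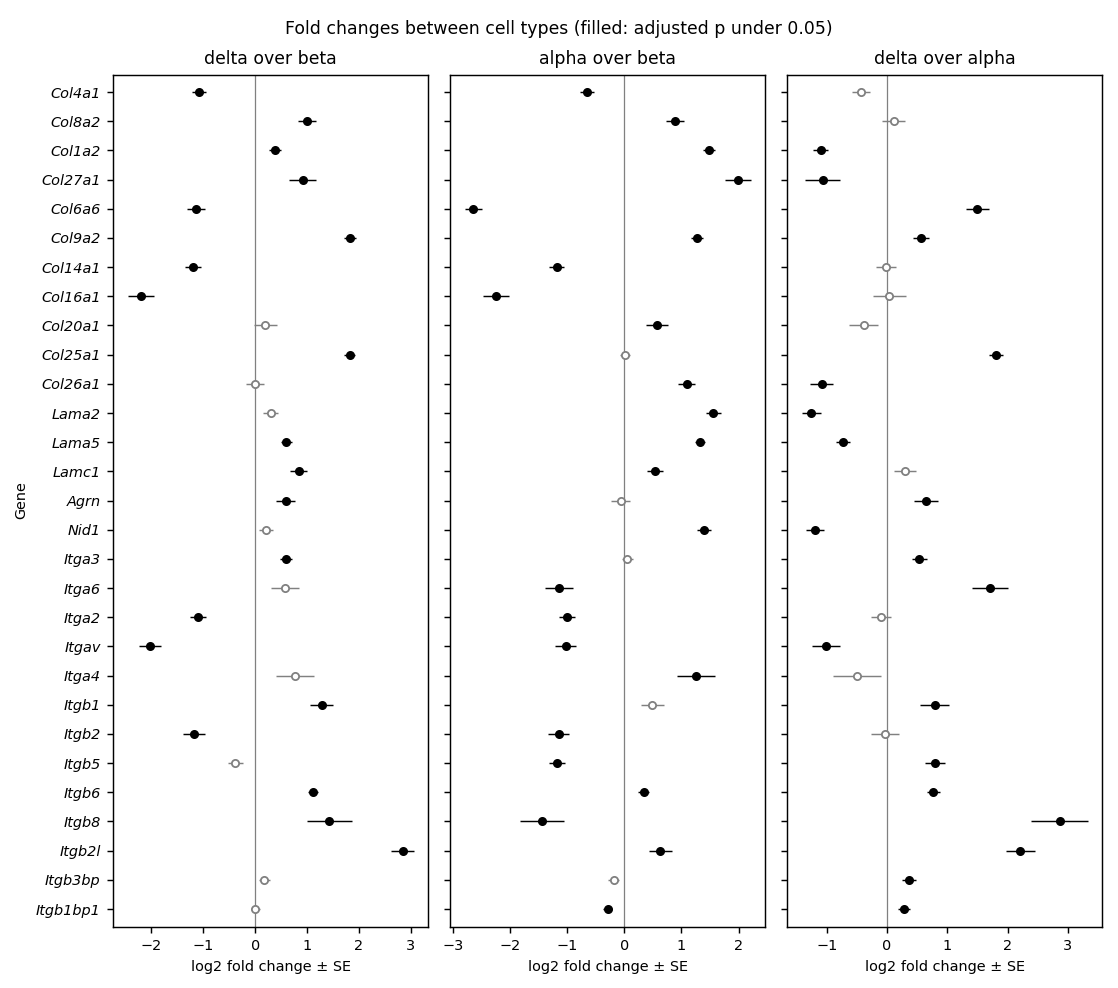
Log2 fold change (horizontal axis, error bars ± SE) of 29 of the tested genes for delta over beta, alpha over beta and delta over alpha cells, with filled points for an adjusted p under 0.05. Col6a6 and Col16a1 are far left for alpha over beta, at -2.64 and -2.24, and Itgb8 and Itgb2l are far right for delta over alpha, at 2.86 and 2.21.

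The symbol rule also took in genes that are no integrin chains. Itgb1bp1 (chr12:21240825-21286284) encodes a cytoplasmic protein that binds the tail of the beta 1 chain and holds the receptor inactive, and it stood at 13.3 and 13.2 RPKM in delta libraries, 11.2, 10.5 and 10.7 in alpha libraries and 12.0 to 13.8 in beta libraries. Alpha libraries were lowest. Alpha over beta was -0.29 ± 0.08 (adjusted p = 0.0132), lost without alpha replicate 2 or 3 (0.0511 and 0.0614) and with hormone reads left out (0.0760). Delta over alpha was 0.29 ± 0.10 (adjusted p = 0.0439), a call that changed sign with median-ratio scaling (-0.01, adjusted p = 0.964) and was lost without any 1 of 8 libraries, at adjusted p between 0.0603 and 0.197. Itgb3bp, a centromere protein first found through the beta 3 chain, was called for delta over alpha alone, at 0.36 ± 0.12 (adjusted p = 0.0370), with 6.25 and 5.57 RPKM in delta and 4.31 to 4.63 in alpha libraries. That value was 0.09 with median-ratio scaling (adjusted p = 0.656), and the call was lost without either delta replicate (0.264 and 0.105), any alpha replicate (0.0952, 0.0917 and 0.0511), or beta replicate 3 or 4 (0.0548 and 0.0539).

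No difference between the sexes was called. Of the 30 genes, 0 were called higher and 0 lower in female over male libraries by limma, where 0.0157% and 0.0315% of all genes tested were (0.0472% in either direction), and 2 had an unadjusted p under 0.05, Col6a6 at 0.0152 and Col9a2 at 0.0344. The difference of alpha over beta cells between the sexes was tested in alpha and beta libraries, with 0 of 30 genes called and 0 at an unadjusted p under 0.05. With 1 female alpha library that test has little power.

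The enzymes that fold and cross-link collagen were compared in the same fit. Of 25 tested genes of 31 listed, 8 were called higher and 6 lower for delta over beta, 7 and 11 for alpha over beta, and 10 and 2 for delta over alpha, where 50.7%, 54.0% and 38.0% of all genes tested were called in either direction. Under median-ratio scaling the counts for delta over beta were 6 higher and 9 lower, and those for delta over alpha 6 and 4. Serpinh1, the collagen-specific chaperone Hsp47, stood at 15.4 and 16.0 RPKM in delta libraries, 7.89 to 10.6 in alpha and 1.84 to 2.65 in beta libraries, and was called at 2.37 ± 0.15 for delta over beta (adjusted p = 2.13e-06) and at 1.66 ± 0.13 for alpha over beta (adjusted p = 9.05e-06). Loxl1, a cross-linking lysyl oxidase, averaged 5.25 RPKM in delta, 0.271 in alpha and 0.0799 in beta libraries, while its relative Loxl2 averaged 0.560, 0.182 and 4.84 RPKM in the same order. Bmp1, the protease that cuts the end of procollagen, fell in delta over beta libraries by 2.12 and in alpha over beta libraries by 1.86 (adjusted p = 3.79e-06 and 4.09e-06).

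Proteins that couple integrins to actin or signal from them formed another list. Of 35 tested genes of 40 listed, 17 were called higher and 1 lower for delta over alpha, 15 and 4 for delta over beta, and 6 and 13 for alpha over beta, beside 38.0%, 50.7% and 54.0% of all genes called in either direction. Over all genes, delta over alpha gave 4076 higher and 748 lower calls. Under median-ratio scaling the list had 10 higher and 3 lower calls for delta over alpha and 13 and 9 for delta over beta, and all genes had 1857 and 1391 for delta over alpha. Fermt1, a kindlin that activates integrins through the beta chain, stood at 10.5 and 11.2 RPKM in delta libraries, 0.135 to 0.251 in alpha libraries and 0.0935 to 0.335 in beta libraries. It was called at 3.35 ± 0.11 for delta over beta (adjusted p = 5.91e-08) and at 3.31 ± 0.12 for delta over alpha (adjusted p = 3.15e-07). Its relative Fermt2 averaged 32.5 RPKM in delta, 17.8 in alpha and 19.2 in beta libraries, and the integrin-linked kinase Ilk, at 32.9, 29.1 and 33.1 RPKM in the same order, was called in none of the 3. The tetraspanins Cd9 and Cd81, membrane partners of integrins, were called higher over beta in delta cells (1.71 and 1.44, adjusted p = 0.00410 and 7.00e-05) and in alpha cells (2.48 and 0.93, adjusted p = 0.000203 and 0.000446).

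Receptors for matrix proteins other than integrins were also compared. Of 15 tested genes of 28 listed, 11 were called higher and 1 lower for delta over beta, 5 and 2 for alpha over beta, and 6 and 0 for delta over alpha. The shares of all genes called higher were 37.4%, 23.7% and 32.1% in the same order, and those called lower 13.3%, 30.3% and 5.89%. Sgce, epsilon-sarcoglycan of the dystrophin complex, stood at 45.4 and 56.6 RPKM in delta libraries, 32.8 to 37.6 in alpha and 0.175 to 1.46 in beta libraries. Delta over beta was called at 5.15 ± 0.23 (adjusted p = 2.77e-07) and alpha over beta at 4.68 ± 0.21 (adjusted p = 2.50e-07). Cd44, the hyaluronan receptor, averaged 31.1 RPKM in delta, 0.899 in alpha and 7.06 in beta libraries, and Bcam, a receptor for laminins with the alpha 5 chain, averaged 42.3, 10.8 and 6.35 RPKM in the same order. Sdc3, a syndecan, was the gene called lower in delta over beta, with 1.64 RPKM in delta, 1.02 in alpha and 10.8 in beta libraries on average.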

How the data were processed

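RNA libraries were prepared from Trizol extracts with the TruSeq RNA kit v2, per the labels' protocols. The authors deposited RPKM values for 19213 genes in 10 libraries. The tools named in the submitters' processing notes are STAR 2.4, featureCounts and, for edgeR, version 3.12.0, with build GRCm38.p3, and neither annotation nor multi-mapped read handling is given in the sources used here. Library totals came from the steps between low RPKM values, where reads were whole within 0.05 read, and 1 RPKM stood for 16.7 to 26.7 reads per kb. Libraries were grouped by the labelled cell type. A limma fit (limma 3.58.1, R 4.3.3) of log2(RPKM + 1) over all libraries took cell type and sex as terms and a trend of variance with level, after a filter of 1 RPKM in 2 libraries. It had 6 residual degrees of freedom (median prior 3.16), and adjustment followed Benjamini and Hochberg. The script was tested on simulated data. No library repeated another of its type (chi-square per gene 14.7 to 229). Coordinates are those of GENCODE M21, which matched all 90 genes by symbol. Alternatives were other pseudocounts, filters and scalings, a fit without sex or trend, leaving out each library and, added after the data were seen, a block. The genes and lists were chosen with earlier results of these data known. Named genes are the tested members, the highest of the others, and per list the called genes with the largest fold changes, up to 4, and up to 2 uncalled. Col1a1, Col3a1, Col6a1, Col6a2, Itga1, Itga11, Fn1, Hspg2, Lamb2, Itgb3, Itgae, Col5a3, Ilk, Fermt2, Esam, Egfl7 and Vim were named outside this rule, as partners or relatives of genes it names or as markers. Listed markers of delta, alpha and beta cells were named for their levels in the other types, without regard to this rule. Results of some genes are not reported here.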

Additional observations from a re-analysis of the deposited data

Results flagged for a closer look

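One value stood apart within its group. Itgb1bp1, the regulator of the beta 1 integrin tail, had 11.97 RPKM in beta replicate 2, while the nearest other beta library had 13.5 RPKM and the highest 13.8 RPKM, so the gap to the nearest library took up most of the range of the 5. By chance, about 1 in 20 groups is marked in this way, and the 30 tested genes gave this single case.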

How the results depend on the processing

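The labels give no replicate number shared between cell types, but 4 pairs of a beta with a delta or alpha library have consecutive numbers in their titles. Deviations of these pairs from the means of their cell types correlated at 0.001 and 0.372 for delta with beta and at 0.269 and 0.464 for alpha with beta libraries. Other delta and beta pairs ranged from -0.372 to 0.362, and other alpha and beta pairs from -0.564 to 0.403. The 2 delta libraries deviate from their mean by equal amounts in opposite directions, so their values are not independent. The check cannot decide whether the numbers pair the libraries, and the main fit does not pair them. A fit with these pairs as a replicate block in place of sex, chosen after seeing the data, had 2 residual degrees of freedom and no use of the 2 libraries without a partner. It called 16 genes higher and 8 lower for delta over beta, 11 and 11 for alpha over beta, and 9 and 7 for delta over alpha, kept 56 of 65 calls, and had 4 genes that led in delta, 3 in alpha and 5 in beta cells. The fold change of delta over beta was 1.66 for Itgb1 and 2.10 for Itgb8 under this block. Of the 65 values of a gene in a comparison that were called, 45 were called under each of the 18 alternatives other than this block that tested them. The sign changed in 2 cases, both Itgb1bp1 for delta over alpha, at -0.0103 with median-ratio scaling and -0.0117 with hormone reads left out. Without a filter on low values all 90 genes were tested. Counts of genes called higher and lower were then 24 and 14 for delta over beta, and 24 were lower for alpha over beta. With an RPKM of at least 5 in 2 libraries, they were 7 and 3 for delta over beta, 5 higher for alpha over beta and 2 lower for delta over alpha, since 16 genes were tested. Shares over all genes are not given for the block, these filters, other pseudocounts, or the fits with hormone reads or 1 library left out. The counts from those fits say nothing about the genes beside all others. For delta over alpha, 6 were higher under median-ratio scaling and 6 with hormone reads left out. With 1 library left out at a time, the higher and lower counts ranged from 6 to 15 and 7 to 9 for delta over beta, from 10 to 14 and 9 to 12 for alpha over beta, and from 5 to 13 and 5 to 8 for delta over alpha. Genes that led ranged from 1 to 3 in delta, 4 to 5 in alpha and 4 to 6 in beta cells, and none was called for sex. With 1 delta replicate left, it is assumed to vary like the other groups. With a pseudocount of 5, 1 gene led in delta, 0 in alpha and 0 in beta cells, and with the filter at 5 RPKM 1 led in alpha and 3 in beta cells. Over all genes, calls for delta over beta were 4750 higher and 1692 lower, or 3188 and 3094 under median-ratio scaling, and for delta over alpha 4076 and 748, or 1857 and 1391. Calls lost with no filter were Itgb1 and Agrn for delta over alpha (adjusted p = 0.0513 and 0.0542) and Col20a1 for alpha over beta (0.0505), and with a pseudocount of 5 Col1a2 for delta over beta (0.109) and Itgb2l for alpha over beta (0.0763). Where no cause is given, the cause was not tested. Depth limits genes under about 0.1 RPKM, which rest on a few reads.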

Other observations

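Matrix proteins outside the collagen and laminin families were compared in the same way. Of 25 tested genes of 51 listed, 10 were called higher and 7 lower for delta over beta, 10 and 10 for alpha over beta, and 6 and 7 for delta over alpha, beside 50.7%, 54.0% and 38.0% of all genes called in either direction. Emilin1, an elastin-binding glycoprotein, stood at 0.643 and 0.777 RPKM in delta libraries and 0.571 to 0.787 in alpha libraries, against 24.6 to 47.2 in beta libraries, and was called at -4.21 ± 0.21 for delta over beta (adjusted p = 5.22e-07) and at -4.19 ± 0.19 for alpha over beta (adjusted p = 2.50e-07). Npnt, nephronectin, a ligand of the integrin alpha 8 beta 1, had 16.1 and 17.2 RPKM in delta libraries, 0.568 to 0.861 in alpha and 4.69 to 7.36 in beta libraries, without overlap. Egflam, which encodes pikachurin, a ligand of dystroglycan, had 1.43 and 1.46 RPKM in delta libraries, 13.9, 10.6 and 8.55 in alpha and 0.0418 to 0.237 in beta libraries. Spp1, osteopontin, a ligand of alpha v integrins, averaged 165 RPKM in delta, 1281 in alpha and 226 in beta libraries, and was called at 2.38 ± 0.33 for alpha over beta (adjusted p = 0.000326).

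Of 19 tested matrix proteases and inhibitors of 31 listed, 7 were called higher and 5 lower for delta over beta, 7 and 6 for alpha over beta, and 4 and 5 for delta over alpha, the last split being 2 and 6 under median-ratio scaling. Over all genes, 37.4% were called higher and 13.3% lower for delta over beta, 23.7% and 30.3% for alpha over beta, and 32.1% and 5.89% for delta over alpha. Timp1, an inhibitor of metalloproteinases, had 12.2 and 13.4 RPKM in delta libraries, 2.15 to 4.64 in alpha and 0.214 to 1.18 in beta libraries. Hpse, the heparanase that cuts heparan sulfate chains, had 0.931 and 0.472 RPKM in delta libraries, against 3.67 to 8.30 in alpha and 4.21 to 6.91 in beta libraries. Serpine2, an inhibitor of thrombin and plasminogen activators, was called higher over beta in delta cells (2.53 ± 0.18, adjusted p = 4.34e-06) and in alpha cells (3.23 ± 0.16, adjusted p = 4.33e-07).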
